A study of Danio rerio with 9 samples.

Results

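Expression of 10 genes of glucose production and of the pancreatic islet was followed in whole zebrafish larvae exposed to perfluorononanoic acid (PFNA), a long-chain perfluorinated carboxylic acid. The genes were chosen by symbol, with earlier results of these data known. They were pck1 and pck2, g6pca.1 and g6pca.2, fbp1a and fbp1b, the glucokinase gene gck, the insulin gene ins, the glucagon gene gcga, and mafa. Of the 10 symbols, 9 had a row in both deposited tables, which held 19251 and 19731 genes, while gck was not analysed here. Larvae of an AB × Tübingen cross were exposed from the embryo for 7 days, with solutions renewed daily, to 0.1% DMSO, to 0.1 µg/L PFNA or to 10 µg/L PFNA. DMSO, a solvent, was also the vehicle of both PFNA groups. Each group had 3 libraries of poly(A) RNA, and each library was made from the 14 to 15 larvae pooled from 1 beaker.

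Gluconeogenesis makes glucose from lactate, amino acids and glycerol, mainly in liver and kidney. Phosphoenolpyruvate carboxykinase, in the cytosol (pck1) or in mitochondria (pck2), turns oxaloacetate into phosphoenolpyruvate. Fructose-1,6-bisphosphatase (fbp1a, fbp1b) and glucose-6-phosphatase (g6pca.1, g6pca.2) each remove a phosphate, and the latter releases free glucose. In vertebrates glucagon, from islet alpha cells, raises transcription of the carboxykinase and phosphatase genes, insulin, from beta cells, lowers it, and glucocorticoids and fasting raise it.

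The names of some of these genes need care. The row with the symbol mafa (ENSDARG00000015890) is paired in the reference gene table with MAF, whereas MAFA, the activator of insulin transcription in mammalian beta cells, is paired with another gene, mafaa (ENSDARG00000044155). The label of the beta cell insulin activator therefore does not hold for mafa. Its values are given as those of a maf family transcription factor, with mafaa beside them. In addition, mafa is among the genes that the study listed by p-value at 0.1 µg/L, from these same libraries, so a difference in mafa is no independent evidence. The genes g6pca.1 (ENSDARG00000031616) and g6pca.2 (ENSDARG00000013721) are close paralogs, on the same chromosome of the RefSeq annotation of assembly GRCz12tu with 3 genes between them. Only reads mapped to a single place were counted, so reads that match both copies are in neither value, and levels of the pair are uncertain to that extent.

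Reads recovered from the tables numbered 14491289 to 23963715 per library. Values below are normalized counts, namely reads divided by a size factor fitted over all 9 libraries, and every mean is given ± SD with n = 3. They serve to compare a gene between libraries and not with another gene, since no gene lengths were used. DMSO replicate 3 stood apart from the other controls. On the first principal component, which held 51.4% of the variance, it scored 41.9 against -49.2 and -31.1 for DMSO replicates 1 and 2. Scores were 39.5 to 51.4 at 10 µg/L, and at 0.1 µg/L they were -68.7, 19.4 and -48.0, with replicate 2 apart from the other two. DMSO replicate 3 also shares its first sequencing index with the 6 exposed libraries, while DMSO replicates 1 and 2 have another. Results are therefore given with and without these libraries where they matter.

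In the DMSO larvae, 6 of the 9 genes were highest in replicate 3. Transcripts of pck1 (ENSDARG00000013522) numbered 1975, 2151 and 5639 normalized counts in DMSO replicates 1, 2 and 3, so replicate 3 was at 2.73 times the mean of the other two. For g6pca.2 the values were 797, 748 and 2034, or 2.63 times. For g6pca.1 they were 62.1, 27.0 and 193, or 4.33 times, the widest spread of the 9 genes with a coefficient of variation of 93.0%. These 3 genes were thus high together in a single control pool. Transcripts of pck2 (ENSDARG00000020956) numbered 579, 362 and 1037, and those of fbp1b (ENSDARG00000020364) 1717, 753 and 2453, in which replicate 2 was also lowest. Insulin transcripts (ins, ENSDARG00000035350) followed with 51.5, 22.6 and 85.3. The remaining 3 genes did not have this order. Values were 1403, 1005 and 1150.2 for fbp1a (ENSDARG00000021366), 44.0, 35.0 and 33.5 for gcga (ENSDARG00000079296), and 57.6, 47.4 and 40.7 for mafa. Coefficients of variation were 15.1% to 17.6% for these 3 genes and 51.9% to 93.0% for the other 6.

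**Figure D1:**
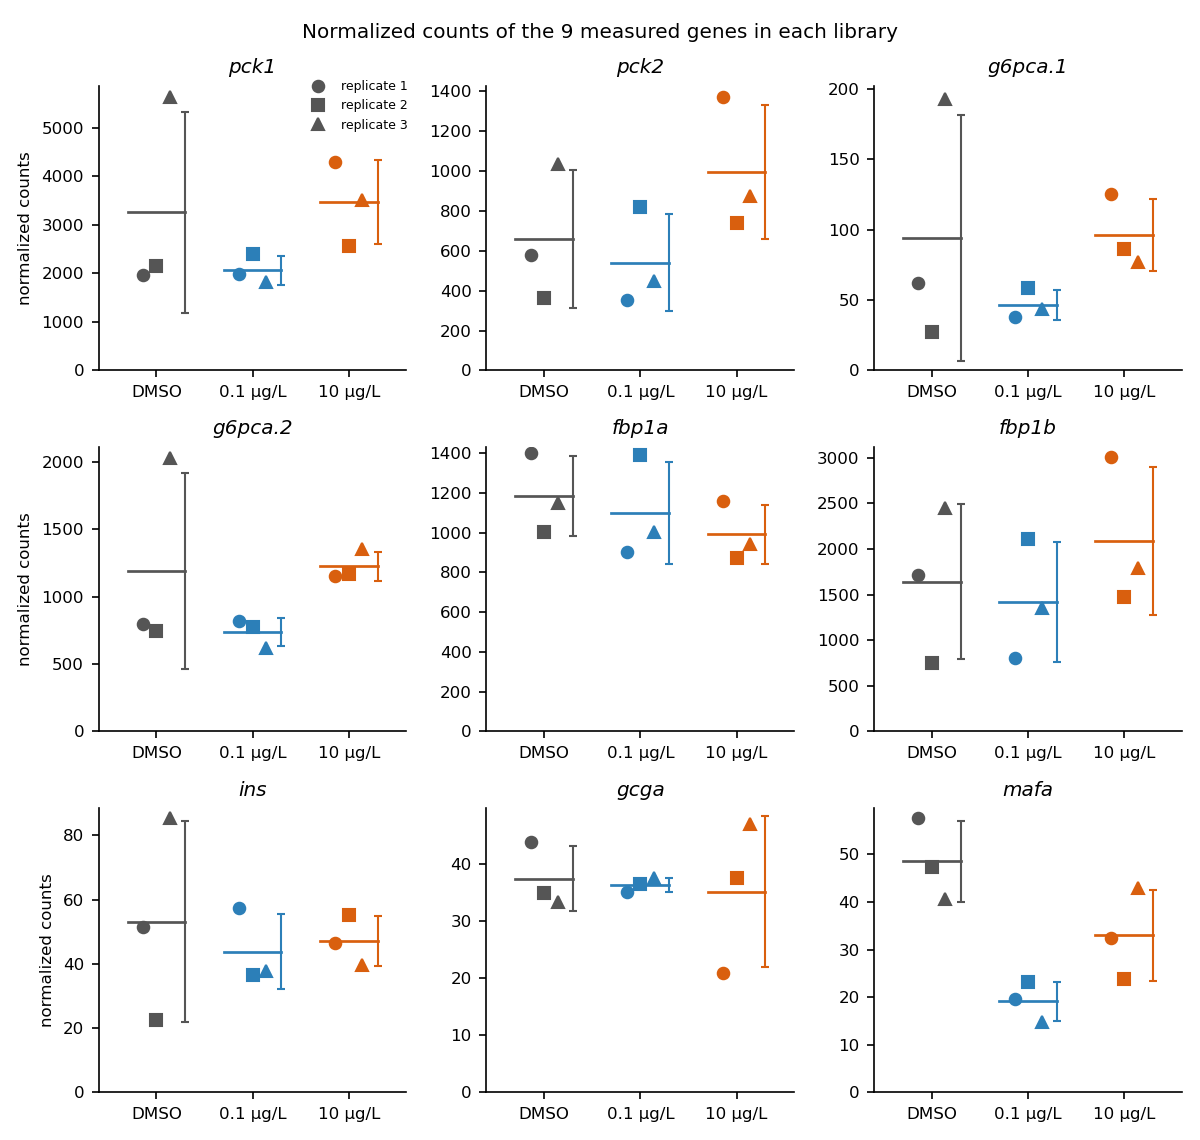
Normalized counts (linear axis from 0, scaled over all 9 libraries) of the 9 measured genes in each library of the control group and of both PFNA groups. Points are libraries, with a marker shape for each replicate number, horizontal lines are means and bars are SD with n = 3. DMSO replicate 3 lies far above the other controls for pck1 (5639), g6pca.1 (193) and g6pca.2 (2034), and the 3 values of mafa at 0.1 µg/L (14.8 to 23.1) lie below all other mafa values.

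Larvae at 0.1 µg/L PFNA were first compared with the DMSO larvae. All 9 genes had a fold change below 1, with a median log2 fold change of -0.24 against 0.0035 over the 19065 genes tested. By limma, 1 of the 9, mafa, had a nominal (unadjusted) p-value below 0.05, against 1.57% of all genes in either direction and 0.813% lower. After Benjamini-Hochberg adjustment, 0 of the 9 were below 0.05 by limma, edgeR or DESeq2, as were 0.0% of all genes by limma and DESeq2, and the limma values were all 1.00. Log2 fold changes below come from log2(normalized count + 1), so those of genes with few reads can be understated. For mafa the value was -1.30, and -1.32 with 0.5 added instead. For ins it was -0.110 and -0.109, so it was not understated.

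The carboxykinase pck1 measured 1978, 2392 and 1823 normalized counts at 0.1 µg/L, with a mean of 2064 ± 294 against 3255 ± 2067 in DMSO. The 0.1 µg/L values lay close to DMSO replicates 1 and 2. The log2 fold change was -0.49 with a standard error (SE) of 0.35 and an interval of -1.27 to 0.30 (95%, limma, unadjusted). Without DMSO replicate 3 it was 0.00053. The phosphatase g6pca.2 measured 817, 777 and 619 at 0.1 µg/L, a mean of 738 ± 105 against 1193 ± 729, with a log2 fold change of -0.54 (SE 0.34). This became -0.07 without DMSO replicate 3. For g6pca.1, the values of 37.7, 58.7 and 43.3 gave a log2 fold change of -0.58 (SE 0.59), and 0.16 without that library. So the lower means of these 3 genes at 0.1 µg/L rested on 1 control pool. With the first index in the model, which leaves DMSO replicate 3 as the only control compared, the log2 fold changes were -1.46 for pck1, -1.48 for g6pca.2 and -2.05 for g6pca.1, with adjusted p-values of 0.336 to 0.387 by limma.

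The other genes of the pathway overlapped the controls widely at 0.1 µg/L. Values of pck2 were 355, 819 and 449, those of fbp1a were 905, 1390.2 and 1003, and those of fbp1b were 802, 2104 and 1351. In pck2, fbp1a and fbp1b alike, 0.1 µg/L replicate 2 was the highest of its group. Their log2 fold changes were -0.24, -0.12 and -0.16. For the hormones, ins measured 57.3, 36.6 and 37.6 and gcga 35.1, 36.6 and 37.6. Log2 fold changes were -0.11 (SE 0.47) for ins and -0.03 (SE 0.31) for gcga. These came from 31 to 107 reads of ins and 22 to 56 reads of gcga per library over the whole study. The 95% interval was -1.16 to 0.94 for ins and -0.72 to 0.67 for gcga.

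Among the 9 genes, mafa gave the lowest p-value in this comparison. It measured 19.5, 23.1 and 14.8 normalized counts, from 15, 24 and 13 reads, against 57.6, 47.4 and 40.7 in DMSO. The groups did not overlap, as was the case with the exposed group lower for 2.98% of all genes. The log2 fold change was -1.30 (SE 0.36, 95% interval -2.10 to -0.50), with an unadjusted p-value of 0.00499 and an adjusted p-value of 1.00 by limma. It ranked sixth by p-value among all genes. With the first index in the model the log2 fold change of mafa was -1.07 and the nominal p-value 0.0708, so that this call was lost. Larvae at 10 µg/L had mafa values of 32.3, 23.9 and 42.9, which overlapped the controls. The order of group means was thus DMSO (48.5 ± 8.53), 10 µg/L (33.0 ± 9.55) and 0.1 µg/L (19.1 ± 4.15), and it was not an order of concentration. The insulin activator ortholog mafaa measured 567, 481 and 441 in DMSO, 633, 506 and 535 at 0.1 µg/L and 524, 435 and 465 at 10 µg/L. All 3 groups of mafaa overlapped, with log2 fold changes of 0.17 (SE 0.17) at 0.1 µg/L and -0.07 at 10 µg/L. Lens fibre cells express maf in vertebrates, and the lens markers had sums of 7625 to 22161 normalized counts in DMSO, 19927 to 23946 at 0.1 µg/L and 15092 to 22846 at 10 µg/L. Of the 7 lens markers tested, 7 were higher at 0.1 µg/L than in DMSO, with a median log2 fold change of 0.61, which is the opposite direction to mafa. Their part in the mafa result was not tested.

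Larvae at 10 µg/L PFNA were compared with the same 3 DMSO libraries, so both comparisons share any peculiarity of those controls. Of the 9 genes, 5 had higher and 4 had lower means at 10 µg/L, with a median log2 fold change of 0.18 against 0.0065 over 19610 genes. None of the 9 had a nominal p-value below 0.05 by limma, against 13.1% of all genes. After adjustment, counts below 0.05 were 0 of 9 by limma (0.0% of all genes), by edgeR and by DESeq2 (1.17% of all genes). No gene of the 9 separated the groups completely, against 18.0% of all genes.

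Transcripts of pck2 showed the largest fold change of the 9 in this comparison. They numbered 1373, 739.8 and 873 at 10 µg/L, a mean of 995 ± 334 against 659 ± 344 in DMSO. The log2 fold change was 0.66 (SE 0.35, 95% interval -0.11 to 1.44), with an adjusted p-value of 0.449 by limma. Values of pck1 were 4301, 2568 and 3522 at 10 µg/L, all between the 2 lower controls and DMSO replicate 3, and gave a log2 fold change of 0.22 (SE 0.36). The same placement held for g6pca.2, with 1157, 1167 and 1352 and a log2 fold change of 0.18 (SE 0.32). It also held for g6pca.1, with 126, 86.3 and 77.4 and a log2 fold change of 0.44 (SE 0.57). The bisphosphatase gene fbp1b measured 3005, 1470.5 and 1786 with a log2 fold change of 0.43 (SE 0.39). Its duplicate fbp1a went the other way, with 1158, 875 and 943 and a log2 fold change of -0.27 (SE 0.17). Adjusted p-values of these 5 genes were 0.545 to 0.846 by limma.

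These results depended on DMSO replicate 3. Without it, 3 of the 9 genes had an adjusted p-value below 0.05 by limma and were higher at 10 µg/L, against 11.2% of all genes called in that fit. Log2 fold changes were then 0.70 for pck1 (adjusted p = 0.0470), 1.05 for pck2 (adjusted p = 0.0312) and 0.65 for g6pca.2 (adjusted p = 0.0143). When the first index is added to the model, DMSO replicate 3 is the only control compared with exposed larvae. The log2 fold changes then took the opposite sign, -0.74 for pck1, -0.12 for pck2 and -0.74 for g6pca.2. The direction at 10 µg/L against DMSO therefore differed with the control pool used. Summed hepatocyte markers were 95054, 36338 and 102011 normalized counts in DMSO replicates 1, 2 and 3. Their mean log2 levels relative to all 9 libraries were 0.29, -0.97 and 0.68 in the same order. Summed intestine markers were 11728, 5313 and 20749 in the same order, and highest in replicate 3 as well. Their part in the result was not tested.

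Islet hormones did not separate at 10 µg/L either. Insulin transcripts measured 46.6, 55.1 and 39.6 normalized counts, within the range of the controls, and the log2 fold change was -0.01 (SE 0.44). Its interval of -0.98 to 0.97 includes differences of nearly 2-fold in either direction. Glucagon transcripts (gcga) measured 20.9, 37.6 and 47.1, holding both the lowest and the highest value of the study, with a log2 fold change of -0.16 (SE 0.37). The log2 fold change of mafa was -0.58 (SE 0.33, adjusted p = 0.487 by limma).

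**Figure D2:**
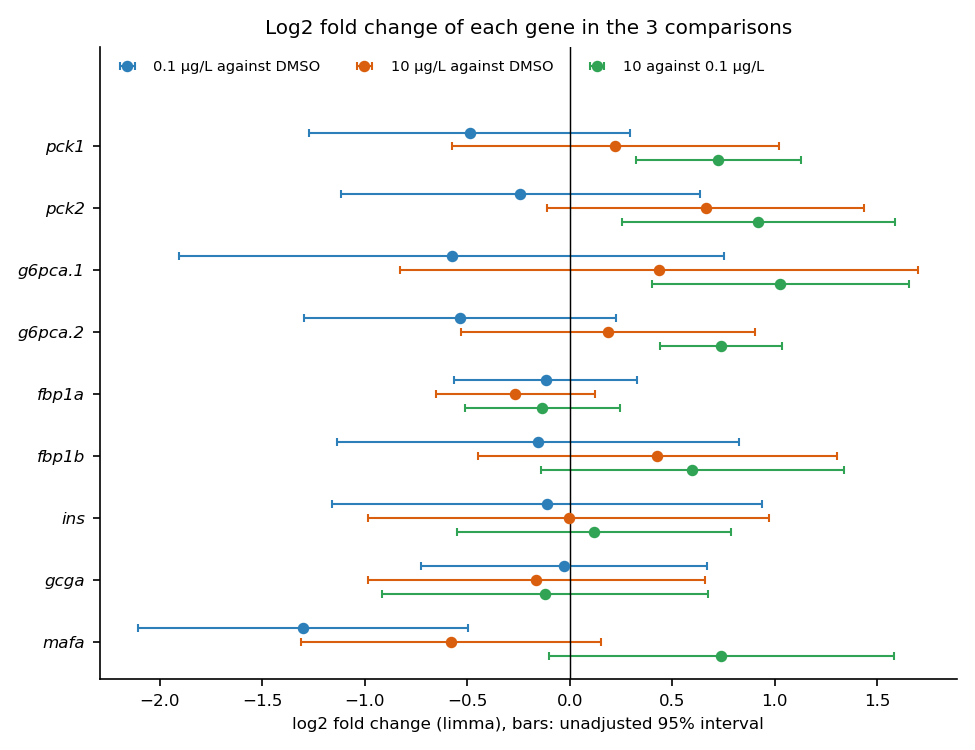
Log2 fold changes (horizontal axis, from log2 of normalized count + 1) of the 9 genes in 3 comparisons, with points for limma estimates and bars for unadjusted 95% intervals from 6 libraries each. Intervals against DMSO include 0 for every gene but mafa at 0.1 µg/L (-2.10 to -0.50), whereas those of 10 against 0.1 µg/L lie above 0 for pck1, pck2, g6pca.1 and g6pca.2.

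The concentrations were then compared directly, on reads scaled together over the 9 libraries. DMSO libraries entered the scaling but not the groups compared. Larvae at 10 µg/L had more transcripts of both carboxykinase genes and both glucose-6-phosphatase genes than larvae at 0.1 µg/L, 1.65 to 2.04 times as many. Of the 9 genes, 7 were higher and 2 lower at 10 µg/L, with a median log2 fold change of 0.72 against 0.0028 over 18965 genes. By limma, 4 of the 9 had a nominal p-value below 0.05 and all 4 were higher, against 25.7% of all genes in either direction and 14.2% higher. After adjustment, 0 of the 9 were below 0.05 by limma (0.0% of all genes) or edgeR. By DESeq2 on the same reads, the 4 genes were below 0.05 after adjustment, against 8.77% of all genes and 4.81% higher. The call therefore depended on the test. With all 9 libraries in one limma model the fold changes were the same, but the nominal p-values were 0.0524 for pck1 and 0.0829 for g6pca.1. Of the 4 genes, only pck2 (0.0336) and g6pca.2 (0.0328) stayed below 0.05. In that fit 3705 of all 18965 genes were below 0.05 as well.

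The phosphatase g6pca.2 had the smallest p-value of the 9. Its values of 1157, 1167 and 1352 at 10 µg/L lay above 817, 777 and 619 at 0.1 µg/L without overlap. Its log2 fold change was 0.74 (SE 0.13, 95% interval 0.44 to 1.03), with an adjusted p-value of 0.0767 by limma and 0.000863 by DESeq2. For pck1, 4301, 2568 and 3522 lay above 1978, 2392 and 1823, although the nearest values differed little. The log2 fold change was 0.72 (SE 0.18, 95% interval 0.32 to 1.13), with adjusted p-values of 0.0775 by limma and 0.00653 by DESeq2. The paralog g6pca.1 also separated the groups, at 77.4 to 126 against 37.7 to 58.7, with a log2 fold change of 1.03 (SE 0.28) and adjusted p-values of 0.0809 by limma and 0.0291 by DESeq2. For pck2 the groups overlapped, since 0.1 µg/L replicate 2 at 819 exceeded 10 µg/L replicate 2 at 739.8. The log2 fold change of pck2 was 0.92 (SE 0.30), with adjusted p-values of 0.104 by limma and 0.0392 by DESeq2. Counting mafa, at 23.9 to 42.9 against 14.8 to 23.1, 4 of the 9 genes separated the concentrations with 10 µg/L higher, as 14.9% of all genes did. The nearest values of mafa came from 26 and 24 reads. The study listed mafa from these same 0.1 µg/L libraries, so its place in that count is no independent evidence. An exact permutation test of 3 against 3 libraries cannot give a p-value under 0.1.

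The bisphosphatase genes differed from each other. Values of fbp1b were 1470.5 to 3005 at 10 µg/L and 802 to 2104 at 0.1 µg/L, with a log2 fold change of 0.60 (SE 0.33, adjusted p = 0.283 by limma). Those of fbp1a were 875 to 1158 and 905 to 1390.2, with a log2 fold change of -0.13 (SE 0.17). Neither hormone gene separated the concentrations, and log2 fold changes were 0.12 (SE 0.30, 95% interval -0.55 to 0.79) for ins and -0.12 (SE 0.36) for gcga. For mafa the log2 fold change was 0.74 (SE 0.38, adjusted p = 0.247 by limma).

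Among limma fits with a single library left out, the number of adjusted calls in this comparison changed only without 0.1 µg/L replicate 2. Without it, 5 of the 9 genes had an adjusted p-value below 0.05 by limma, against 27.0% of all genes. These were the 4 genes above and fbp1b, which then had a log2 fold change of 0.94. For pck1, pck2, g6pca.1 and g6pca.2 the log2 fold change stayed above 0 whichever single library was left out, with lowest values of 0.55, 0.66, 0.82 and 0.62. Without 10 µg/L replicate 1, pck2 had a nominal p-value of 0.0604. For fbp1b the log2 fold change was 0.24 without 0.1 µg/L replicate 1 and 0.30 without 10 µg/L replicate 1.

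**Figure D3:**
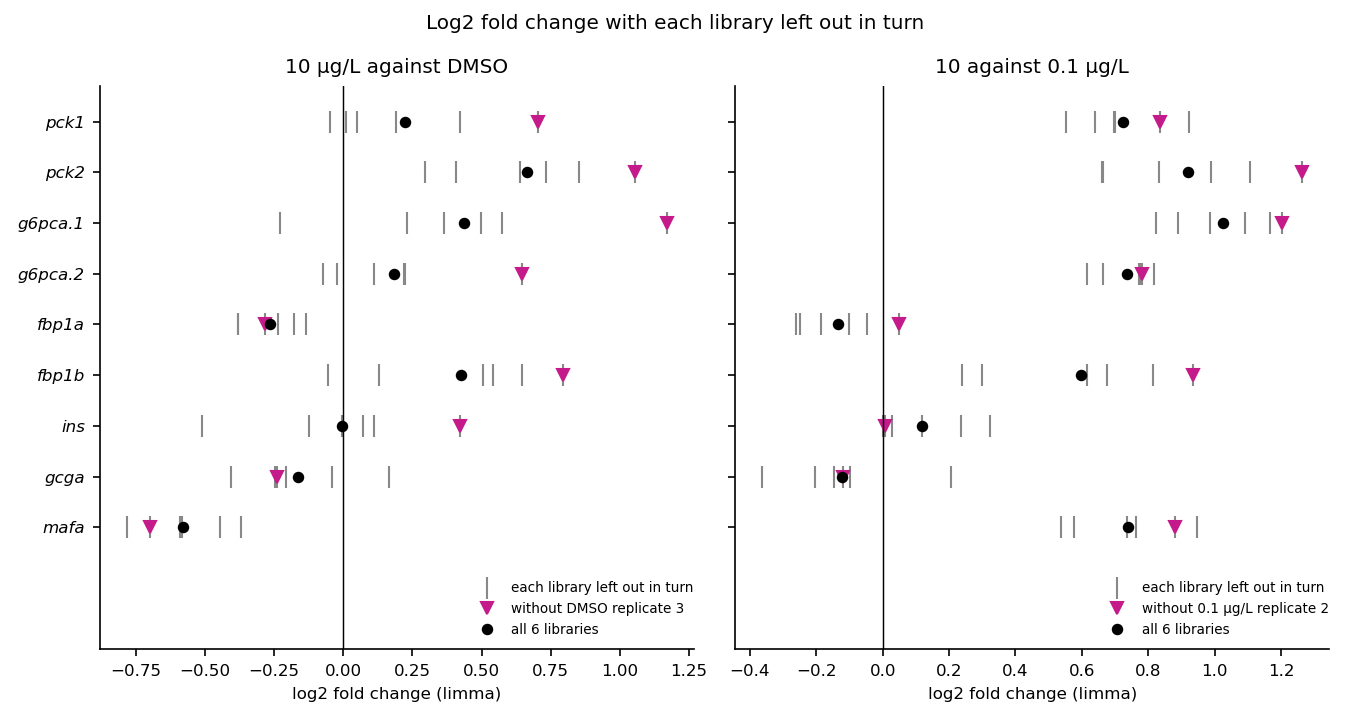
Log2 fold changes by limma (horizontal axes, a scale for each panel) of the 9 genes for 10 µg/L against DMSO (left) and 10 against 0.1 µg/L (right), with all 6 libraries (black points) and with each library left out in turn (grey ticks). Triangles mark the fit without DMSO replicate 3 (left) or without 0.1 µg/L replicate 2 (right). On the left, pck1 ranges from -0.05 to 0.70 and g6pca.1 from -0.23 to 1.17, while on the right every fit of pck1, pck2, g6pca.1 and g6pca.2 lies above 0.

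Markers of organs that make glucose, and of the intestine, were also mostly higher at 10 than at 0.1 µg/L. Of 15 hepatocyte markers, 12 were higher, 7 of them with a nominal p-value below 0.05 by limma. Of all genes, 14.2% were higher with such a p-value. The median log2 fold change of the hepatocyte markers was 0.61. Their summed level was 44329 to 78664 normalized counts at 0.1 µg/L and 74638 to 103960 at 10 µg/L. All 8 intestine markers were higher at 10 µg/L, 3 with a nominal p-value below 0.05 beside the same 14.2% of all genes. Their median log2 fold change was 0.66. Their sums were 6981 to 13248 and 10774 to 23407. Sums of 6 kidney proximal tubule markers were 3081 to 4010 and 3390 to 5624. Of these 6, 5 were higher at 10 µg/L, 1 with a nominal p-value below 0.05, and the median log2 fold change was 0.22. No marker of hepatocytes, intestine or kidney was without reads. Their part in the higher pck1, pck2, g6pca.1 and g6pca.2 was not tested, and in RNA of whole larvae fewer cells of a type and less RNA per cell cannot be told apart. At 0.1 µg/L against DMSO, 2 of the 15 hepatocyte markers and 0 of the 8 intestine markers were higher, with medians of -0.23 and -0.30, beside the lower means of these genes. Of 15 islet markers other than the genes above, 12 had a row in both deposited tables (insb, rfx6 and sst2 did not). Their sums were 4988 to 6249 in DMSO, 5609 to 6372 at 0.1 µg/L and 5084 to 6038 at 10 µg/L. Of these counts, neurod1 gave 1950 to 2703.5 and isl1 909 to 1420 per library, whereas slc30a8 gave 2.6 to 30.3. Whole larvae do not separate the islet from other sources of these transcripts, so the sums do not measure islet content. The 15 exocrine pancreas markers summed to 39271 to 97074, 54646 to 60033 and 43541 to 65163. Only 2 of the 15 were higher than in DMSO at 0.1 µg/L, and 2 at 10 µg/L. Their median log2 fold changes were -0.20 and -0.38, with 0 at a nominal p-value below 0.05. Between the concentrations 3 of the 15 were higher at 10 µg/L, with a median of -0.14.

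**Figure D4:**
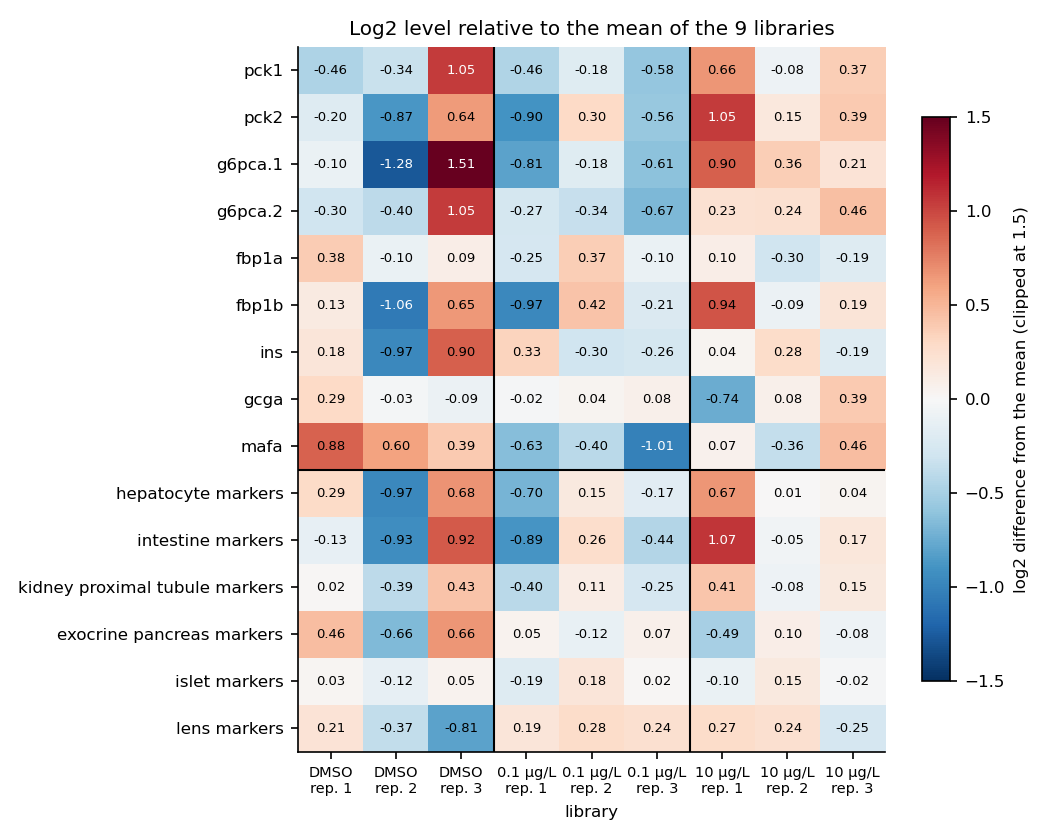
Log2 level of the 9 genes (upper rows) and mean log2 level of 6 marker lists (lower rows) in each of the 9 libraries (columns), relative to the mean over all libraries, with red above and blue below it and colours clipped at 1.5. In DMSO replicate 3, pck1 (1.05), g6pca.1 (1.51), g6pca.2 (1.05), the hepatocyte markers (0.68) and the intestine markers (0.92) are all high, and in DMSO replicate 2 the hepatocyte (-0.97) and intestine (-0.93) markers are low together with g6pca.1 (-1.28) and fbp1b (-1.06).

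The genes varied together in part. Over the 9 libraries, the Pearson correlation of log2 levels was 0.921 between pck1 and g6pca.2, 0.946 between pck2 and fbp1b and 0.893 between pck2 and g6pca.1. Without DMSO replicate 3 these were 0.842, 0.938 and 0.937. By contrast, fbp1a gave 0.0751 with pck1 and -0.0949 with g6pca.2. The correlation of gcga with pck1 was -0.42, but 0.57 without the 2 libraries farthest from the median of pck1. All values of a library share its depth and its size factor, and the 9 libraries include the 3 groups, so these correlations are descriptions. Among 14262 genes with a mean of at least 50, the most similar pattern to pck1 was that of tns2b, a tensin gene, with a Pearson correlation of 0.980 and a Spearman correlation of 0.933. The next was plxdc2, with 0.979 and 0.933. The same gene, tns2b, was also most similar to g6pca.2 (0.975 and 0.883), followed by mylk4a, a myosin light chain kinase gene (0.955 and 0.867). For pck2 the closest genes were anpepb, an aminopeptidase N gene of the intestine marker list (0.990 and 1.00), and pnp4b, a purine nucleoside phosphorylase gene (0.989 and 0.983). For fbp1b they were slc27a2a, a fatty acid transport and activation gene (0.996 and 1.00), and slc15a1a, a peptide transporter gene (0.992 and 0.983). The closest to g6pca.1 were cfhl4, of the complement factor H family (0.984 and 0.983), and tmem86b (0.981 and 0.983). The closest to fbp1a were the proteasome gene psma2 and the importin gene ipo7, both at 0.960 or above. Leaving out the 2 libraries farthest from the median of each gene gave Pearson correlations of 0.888 to 0.987.

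Other genes of the same pathways were counted from lists. No listed gene had an adjusted p-value below 0.05 by limma in any comparison, as was the case for all genes tested (0.0%). This count therefore does not set the lists apart from other genes. Calls by DESeq2 were not counted for the lists. Of 59 genes of gluconeogenesis, glycolysis and pyruvate use, 56 were tested. At 0.1 µg/L, 28 were higher and 28 lower than in DMSO, and 1 had a nominal p-value below 0.05, beside 1.57% of all genes. For 10 µg/L, 34 were higher and 22 lower, and 5 had a nominal p-value below 0.05, a smaller share than the 13.1% of all genes. Between the concentrations, 15 of the 56 did, 11 higher and 4 lower at 10 µg/L, close to the 25.7% of all genes. Transcripts of pfkla, a subunit of the glycolytic enzyme phosphofructokinase, numbered 28.8, 77.3 and 116 in DMSO, 31.2, 105 and 30.8 at 0.1 µg/L and 132, 178 and 135.5 at 10 µg/L. All 3 libraries at 10 µg/L were above the other 6, with log2 fold changes of 1.18 against DMSO and 1.64 against 0.1 µg/L. This gene was named for its small p-value, and 18.0% of all genes had no overlap between 10 µg/L and DMSO. Of the bifunctional enzyme gene pfkfb4b, which sets the level of the phosphofructokinase activator fructose-2,6-bisphosphate, there were 1047, 1564 and 1571 in DMSO and 699.9, 722 and 1007 at 10 µg/L, a log2 fold change of -0.79 (adjusted p = 0.242 by limma). The glucose-6-phosphate transporter gene slc37a4b, whose product feeds glucose-6-phosphatase, measured 327, 366 and 396 in DMSO and 645, 461 and 449 at 10 µg/L, a log2 fold change of 0.48 (adjusted p = 0.319). For pdk3a, a kinase that inactivates pyruvate dehydrogenase, the log2 fold change at 10 µg/L was 0.93 (adjusted p = 0.292).

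Of 16 glycogen genes tested at 10 µg/L, 12 were higher and 4 lower than in DMSO. A nominal p-value below 0.05 was found for 2 of the 16, close to the 13.1% of all genes, with a median log2 fold change of 0.16. Against 0.1 µg/L, 12 of 16 were again higher, 6 of them with a nominal p-value below 0.05, and the median was 0.20. Of all genes, 25.7% had such a p-value in either direction and 14.2% were higher. At 0.1 µg/L against DMSO, 4 were higher and 12 lower, with 0 at a nominal p-value below 0.05. The branching enzyme gene gbe1b measured 33.3, 34.3 and 55.8 in DMSO and 105, 66.1 and 66.5 at 10 µg/L, without overlap (log2 fold change 0.92, adjusted p = 0.287 by limma). These groups did not overlap for 18.0% of all genes. The phosphorylase gene pygb measured 167, 184 and 251 in DMSO, against 358, 254 and 268 at 10 µg/L (log2 fold change 0.54). Of the liver phosphorylase gene pygl there were 789.6, 298 and 1034 in DMSO, and replicate 2 was lowest, as for fbp1b. The debranching enzyme gene aglb had a log2 fold change of 0.78 between the concentrations.

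Of the regulators, 29 were tested at 0.1 µg/L, 9 higher and 20 lower, with 1 at a nominal p-value below 0.05, beside 1.57% of all genes. That gene was cebpa, a transcription factor of hepatocytes that acts on carboxykinase genes in mammals. It measured 247, 249 and 403 in DMSO, 163, 195 and 202 at 0.1 µg/L and 321, 263 and 253 at 10 µg/L. DMSO replicate 3 was the highest of the controls. A lower exposed group without overlap was found at 0.1 µg/L against DMSO for 2.98% of all genes. The 0.1 µg/L libraries of cebpa were below all others, with a log2 fold change of -0.64 against DMSO (SE 0.23, adjusted p = 1.00) and 0.58 for 10 against 0.1 µg/L (adjusted p = 0.0823). For 10 µg/L, 30 regulators were tested, 14 higher and 16 lower, and 7 had a nominal p-value below 0.05, beside 13.1% of all genes. The glucocorticoid-induced gene fkbp5 measured 1503, 3301 and 3289.6 in DMSO and 983, 801 and 1759.8 at 10 µg/L, a log2 fold change of -1.20 (adjusted p = 0.242 by limma). The insulin receptor substrate gene irs2b measured 3184, 2984 and 2277 in DMSO and 2024, 1705 and 1997 at 10 µg/L, without overlap, a log2 fold change of -0.56 (adjusted p = 0.260). These groups did not overlap for 18.0% of all genes. The glucagon receptor gene gcgrb, also among the 7, was measured in this comparison only. It may have entered the test through its 10 µg/L reads. Its log2 fold change of 1.57 (adjusted p = 0.285 by limma) is therefore no support for a difference. Transcripts of igfbp1a and igfbp1b, whose mammalian counterpart is lowered by insulin, had log2 fold changes of -0.36 and -0.37 at 0.1 µg/L. At 10 µg/L against DMSO these were -0.35 and -0.61, and for 10 against 0.1 µg/L they were 0.02 and -0.23. Both genes were also highest in DMSO replicate 3, at 1.69 and 1.88 times the mean of the other controls. Between the concentrations, 9 of 29 regulators had a nominal p-value below 0.05, 8 of them higher at 10 µg/L. Of all genes, 25.7% had such a p-value in either direction and 14.2% were higher.

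Other hormones of the islet were few in the tables. Of 12 listed, 6 were tested at 0.1 µg/L and all 6 were higher than in DMSO, none with a nominal p-value below 0.05, with a median log2 fold change of 0.17. Of 7 tested at 10 µg/L, 4 were higher and 3 lower. That count holds a gene tested in this comparison only, which may have entered the test through its 10 µg/L reads. The somatostatin gene sst1.2 measured 34.9, 26.3 and 40.7 in DMSO and 45.6, 44.3 and 46.7 at 0.1 µg/L (log2 fold change 0.44, adjusted p = 1.00 by limma). The peptide YY gene pyya had a log2 fold change of -0.53 for 10 against 0.1 µg/L. Of the 6 tested there, only pyya had a nominal p-value below 0.05, against 25.7% of all genes. Of 24 islet transcription factors tested, 11, 13 and 12 were higher in the comparisons at 0.1 µg/L, at 10 µg/L and between them. A nominal p-value below 0.05 was found for 1 at 0.1 µg/L (1.57% of all genes) and 2 at 10 µg/L (13.1%). Between the concentrations 1 was higher and 2 were lower with such a p-value, beside 25.7% of all genes. Of the 24 factors, rfx3, a factor of ciliated and islet cells in mammals, measured 30.3, 24.1 and 52.6 in DMSO. At 10 µg/L it measured 59.0, 89.96 and 93.4 (log2 fold change 1.19, adjusted p = 0.249 by limma). For arxa, the ortholog of a factor of alpha cells, the log2 fold change at 10 µg/L was 0.74 (adjusted p = 0.259).

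Genes of hormone processing and secretion did not share a direction at 10 µg/L. The prohormone convertase genes pcsk1 and pcsk2, whose products cut proinsulin and proglucagon but which are also expressed in the brain, were higher. Values of pcsk2 were 114, 75.8 and 189.7 in DMSO, 62.5, 209.7 and 84.4 at 0.1 µg/L and 225, 354.3 and 247 at 10 µg/L. Those of pcsk1 were 33.3, 43.8 and 143 in DMSO, 31.2, 145 and 65.0 at 0.1 µg/L and 159, 255 and 146 at 10 µg/L. For both genes the 10 µg/L libraries were above all others, though for pcsk1 by little (146 against 145 and 143). Both were named for their small p-values, and 18.0% of all genes had no overlap between 10 µg/L and DMSO. Log2 fold changes against DMSO were 1.18 for pcsk2 (adjusted p = 0.242 by limma) and 1.58 for pcsk1 (adjusted p = 0.259). DMSO replicate 3 and 0.1 µg/L replicate 2 were the highest of their groups for both. The granule protein gene chga went the other way, with 765, 815 and 404 in DMSO and 400.3, 465 and 421 at 10 µg/L (log2 fold change -0.57, adjusted p = 0.371). Of the list as a whole, 18 rows were tested. In larvae at 10 µg/L, 10 were higher and 8 lower than in DMSO, with 2 in each direction at a nominal p-value below 0.05, beside 13.1% of all genes. Between the concentrations 5 in each direction were, or 10 of 18 rows against 25.7% of all genes. Because scg5 has several rows, it is counted repeatedly among the lower ones, so these rows are not all different genes.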

How the data were processed

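RNA of 9 pools of whole larvae was sequenced. The authors trimmed reads with Trimmomatic 0.36, mapped them with STAR 2.5.2b to GRCz10 and counted unique exon reads with featureCounts of Subread 1.5.2. The deposited values are a signal, namely read counts divided by DESeq2 size factors fitted in each table. The deposited tables also hold p-values and log2 fold changes from a DESeq2 test by the authors, which were not used. Whole reads were recovered from all 12 library columns (100% of values within 0.02 read, with DMSO reads identical in both tables). No library column was left out.

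Each concentration was compared with DMSO in its own table, and the concentrations with each other on recovered reads scaled over 9 libraries, by limma 3.58.1 (R 4.3.3, empirical Bayes with trend, two-sided) on log2 of the value plus 1. Genes with a mean of at least 10 in the 6 libraries were tested, with Benjamini-Hochberg adjustment over all of them and a threshold of 0.05. Per-library values are on the scale of 9 libraries, while fold changes against DMSO come from the scale of each table. Alternatives were other pseudocounts, minimum means and scalings, other limma settings, a replicate block, an index covariate, libraries left out, and count tests of the recovered reads by DESeq2 1.42.0 and by edgeR 4.0.16. The fits were tested on simulated data. Intervals are limma's and are not adjusted.

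All 10 genes are named, with at most 4 genes of each list, those with the smallest p-value at either concentration, plus igfbp1a, igfbp1b and mafaa, the last named after its reference symbol was seen. Patterns were compared for genes with a mean of at least 50. The genes and lists were chosen with earlier results of these data known. Gene names come from the files and were matched to a RefSeq table by identifier. No sequence is shown because none was used here.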

Additional observations from a re-analysis of the deposited data

How the results depend on the processing

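Of 523 log2 fold changes of single genes under alternatives, 478 kept their direction and side of the threshold, 32 changed sign and 13 passed the threshold. At 0.1 µg/L against DMSO, the number of the 9 genes with a nominal p-value below 0.05 was 1, beside 299 of all 19065 genes. It became 2 by DESeq2, beside 270 of 19251, and 0 with a minimum mean of 50, where mafa was not tested. It was 1 to 2 when single libraries were left out, and the 2 came without DMSO replicate 2, beside 411 of 19028. DMSO replicate 3 is the only control compared in the fit with the first index as a covariate, so its calls are not counted here. At 10 µg/L against DMSO the number was 0, beside 2572 of all 19610 genes, and became 0 to 5 with libraries left out. The 5 came without DMSO replicate 3, beside 5252 of 19495. The number at an adjusted p-value below 0.05 went from 0 to 0 to 3. The 3 came from that same fit, beside 2190 of all genes. Between the concentrations the number was 4, beside 4868 of all 18965 genes. It became 2 (pck2 and g6pca.2) with all 9 libraries in one model, beside 3705 of 18965. With libraries left out it was 3 to 5, and the 5 came without 0.1 µg/L replicate 2, beside 7426 of 18971. The adjusted number of 0 became 4 by DESeq2, beside 1677 of 19130. It was 0 to 5 with libraries left out, the 5 again without 0.1 µg/L replicate 2, beside 5125 of all genes.

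The replicate numbers did not pair the libraries, since correlations of deviations between libraries of the same number were -0.36 to 0.28. With the replicate number as a block, 1 of the 9 genes had a nominal p-value below 0.05 at 10 µg/L against DMSO, beside 2908 of all 19610. Between the concentrations 1 (g6pca.2, adjusted p = 0.0414 by limma) had an adjusted one, beside 740 of all 18965 genes.

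Signs changed as follows. At 10 µg/L with the index covariate, log2 fold changes were -0.74 for pck1, -0.12 for pck2, -1.03 for g6pca.1, -0.74 for g6pca.2 and -0.31 for fbp1b. For g6pca.1 it was -0.0030 by edgeR, and for ins 0.0055 with all 9 libraries. For gcga at 0.1 µg/L it was 0.12 with the index and 0.0616 with quantile normalization, which also gave -0.13 for ins between the concentrations. With single libraries left out, ranges at 0.1 µg/L were -0.76 to 0.00053 for pck1, -0.61 to 0.15 for pck2, -1.24 to 0.16 for g6pca.1, -0.30 to 0.0115 for fbp1a, -0.64 to 0.22 for fbp1b, -0.61 to 0.32 for ins and -0.0967 to 0.0891 for gcga. At 10 µg/L they were -0.0470 to 0.70 for pck1, -0.23 to 1.17 for g6pca.1, -0.0720 to 0.65 for g6pca.2, -0.0562 to 0.79 for fbp1b, -0.51 to 0.42 for ins and -0.41 to 0.16 for gcga. Between the concentrations they were -0.26 to 0.0483 for fbp1a and -0.36 to 0.20 for gcga. The cause was not tested. For mafa at 0.1 µg/L the alternatives that tested it gave values of -1.44 to -1.07, the last with the index, at a nominal p-value of 0.0708. Each group had 3 libraries, with as few as 13 reads of mafa and 22 of gcga in a library. At 10 µg/L against DMSO, the intervals of ins and gcga reached differences of nearly 2-fold.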
